A study of Mus musculus with 15 samples.

Results

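The diacylglycerol kinase family was followed across mouse lymphomas and neuroblastomas with and without caspase-2, as 10 genes (Dgka, Dgkb, Dgkd, Dgke, Dgkg, Dgkh, Dgki, Dgkk, Dgkq and Dgkz) of the 23329 counted in each tumor. They were selected by name and on measured counts, because Dgka was higher in lymphomas that lack caspase-2 and Dgkk was lower in neuroblastomas that lack it. Those 2 differences are therefore given as descriptions, with no test. RNA was sequenced from 15 tumors, 1 per mouse. There were 4 EμMyc lymphomas, with c-Myc driven in B cells by an immunoglobulin heavy chain enhancer and Casp2 wild type, and 3 EμMyc/Casp2-/- lymphomas that also lack both copies of Casp2, all from cervical lymph nodes of C57BL/6 mice. There were 4 Th-MYCN neuroblastomas, with MYCN driven in sympathetic neuroblasts by the tyrosine hydroxylase promoter and Casp2 wild type, and 4 Th-MYCN/Casp2-/- neuroblastomas, all paraspinal thoracic tumors of Sv129/C57BL6 mice, picked for little blood supply. Tumors appeared at 13 to 19 weeks of age in EμMyc mice, 8 to 12 in EμMyc/Casp2-/-, 10 to 21 in Th-MYCN and 15 to 24 in Th-MYCN/Casp2-/-. Strain and site go with tumor type and, in the lymphomas, the ages of the genotypes do not overlap, so these cannot be told apart from the effects of tumor type and of genotype. In bulk tumor RNA, fewer cells that express a gene and less of its RNA per cell cannot be told apart either.

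Diacylglycerol is the membrane lipid that phospholipase C releases when a receptor is engaged, and it recruits protein kinase C, RasGRP and other proteins with a C1 domain. Diacylglycerol kinases phosphorylate it to phosphatidic acid, which ends that signal and starts another, and which also feeds the resynthesis of phosphatidylinositol. The isoforms share a catalytic domain and are sorted into types I to V by their regulatory parts. The α and ζ isoforms are best known from lymphocytes, where they dampen Ras signaling below the antigen receptor, and several others, among them β, γ and ι, are known from neurons.

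The sequences before the start sites of Dgka and Dgkk are shown because these 2 members moved with genotype in tumors that are driven by Myc and MYCN, both of which bind the E-box CACGTG. RefSeq promoter windows of build GRCm38.p6 were found for 10 of the 10 members, 16 windows in all, and the 250 bases before each start were searched. CACGTG reads the same on both strands. It was present in 4 of the 16 windows, from 3 genes (Dgka, Dgkg and Dgkh), against 6.02% of all 32851 windows of this length. Of the 4 Dgka windows 3 held no CACGTG, and in the fourth it lay 11 bases before an internal start, on the minus strand of chromosome 10. The windows are printed 5′ to 3′, with the E-box of Dgka in capitals and, in Dgkk, the first copy of a tandem repeat in capitals.
Dgka, chr10:128737613-128737862, minus strand: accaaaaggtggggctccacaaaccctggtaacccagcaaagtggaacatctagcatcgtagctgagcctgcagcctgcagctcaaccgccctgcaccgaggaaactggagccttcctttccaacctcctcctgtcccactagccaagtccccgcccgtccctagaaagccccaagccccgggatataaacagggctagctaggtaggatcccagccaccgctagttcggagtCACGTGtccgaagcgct
Dgkk, chrX:6779056-6779305, plus strand: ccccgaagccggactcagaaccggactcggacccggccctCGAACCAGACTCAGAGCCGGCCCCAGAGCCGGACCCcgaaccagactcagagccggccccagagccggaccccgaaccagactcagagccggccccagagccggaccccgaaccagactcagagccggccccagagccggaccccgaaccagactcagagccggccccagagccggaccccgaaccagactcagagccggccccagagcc
The Dgkk window held no E-box and 22 CpG dinucleotides. Its repeat unit of 36 bases occurred in 5 complete copies that took up 180 of the 250 bases. These matches describe the letters only, and no binding was measured.

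Libraries held 4940464 to 17638029 reads in the strand column used, in which 3 reads are worth 0.170 to 0.607 CPM, the unit used throughout (reads of a gene relative to its library, after TMM scaling). Casp2 was lower in EμMyc/Casp2-/- (51.9 to 76.1 CPM) than in EμMyc lymphomas (125 to 203 CPM), a log2 fold change of −1.35 (SE 0.27; likelihood ratio test of edgeR, LRT, FDR 0.000400; its quasi-likelihood test, QLF, FDR 0.0536). In neuroblastomas it was 39.6 to 80.2 CPM without and 76.0 to 125 CPM with the gene (log2 fold change −0.79, SE 0.25, LRT FDR 0.101). The lymphomas carried B cell markers (8 genes, summed 1920 to 4890 CPM, against 9.06 to 25.9 CPM in neuroblastomas) and the neuroblastomas carried sympathetic neuroblast markers (8 genes, summed 3080 to 5650 CPM, against 2.60 to 17.1 CPM in lymphomas). EμMyc/Casp2-/- replicate 1 stood apart. It is the shallowest library and the only female lymphoma, and its 12 T cell markers summed to 1860 CPM against 108 to 349 CPM in the other lymphomas. Th-MYCN/Casp2-/- replicate 3, listed as female, had 35.1 CPM of Xist, the RNA of the inactive X chromosome, against 1670 to 3730 CPM in the other females. The genotype fold changes of Dgka, Dgkk and Dgkg are also given without the library concerned, but the calls of T cell markers are not.

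Dgkz and Dgkd carried most of the family in wild-type tumors. Levels were compared between genes as CPM per kilobase of exon (CPM/kb). In EμMyc lymphomas Dgkz was at 73.6 ± 13.8 and Dgkd at 71.1 ± 20.5 CPM/kb (SD, n = 4), and Dgkz was above Dgkd in 2 of 4 tumors, so the 2 leaders could not be ordered. Dgka (20.2), Dgke (7.96) and Dgkq (4.03 CPM/kb) followed in that order in 4 of 4 tumors, with no overlap of their ranges. Dgkh, Dgki, Dgkg, Dgkb and Dgkk were each at or below 0.115 CPM/kb, and the ranges of neighbors in that order overlapped. In Th-MYCN neuroblastomas Dgkd (32.9 ± 5.61) and Dgkz (29.6 ± 11.2 CPM/kb, SD, n = 4) led again with overlapping ranges, and Dgkk was next at 10.4 ± 1.53 CPM/kb, above Dgke (5.21) in 4 of 4 tumors. Dgke, Dgkq (4.98), Dgkg (3.08) and Dgka (2.79 CPM/kb) overlapped with their neighbors, and Dgki (1.26), Dgkh (0.230) and Dgkb (0.0958 CPM/kb) closed the order without overlap.

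Both members of the selection rule changed rank with genotype. In EμMyc/Casp2-/- lymphomas the mean of Dgka (86.9 ± 59.9 CPM/kb, SD, n = 3) was above those of Dgkz (71.4) and Dgkd (64.7), but in replicate 3 Dgka was below both. Dgka made up 51.3% of the summed family in replicate 1 and 40.7% in replicate 2, against 13.3% in replicate 3 and 10.2% to 12.8% in EμMyc tumors. In neuroblastomas Dgkk went from 9.85% to 13.2% of the family in Th-MYCN tumors to 0.258% to 1.34% in Th-MYCN/Casp2-/- tumors, where Dgkd (46.0% to 47.2%) and Dgkz (23.2% to 32.1%) held the bulk. The family summed to 177 ± 32.0 CPM/kb in EμMyc, 234 ± 45.3 in EμMyc/Casp2-/- (n = 3), 90.6 ± 6.21 in Th-MYCN and 69.8 ± 10.7 CPM/kb in Th-MYCN/Casp2-/- tumors (SD, n = 4 otherwise). All 10 members had at least 3 reads in every neuroblastoma, and 6 to 8 did in each lymphoma.

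**Figure D1:**
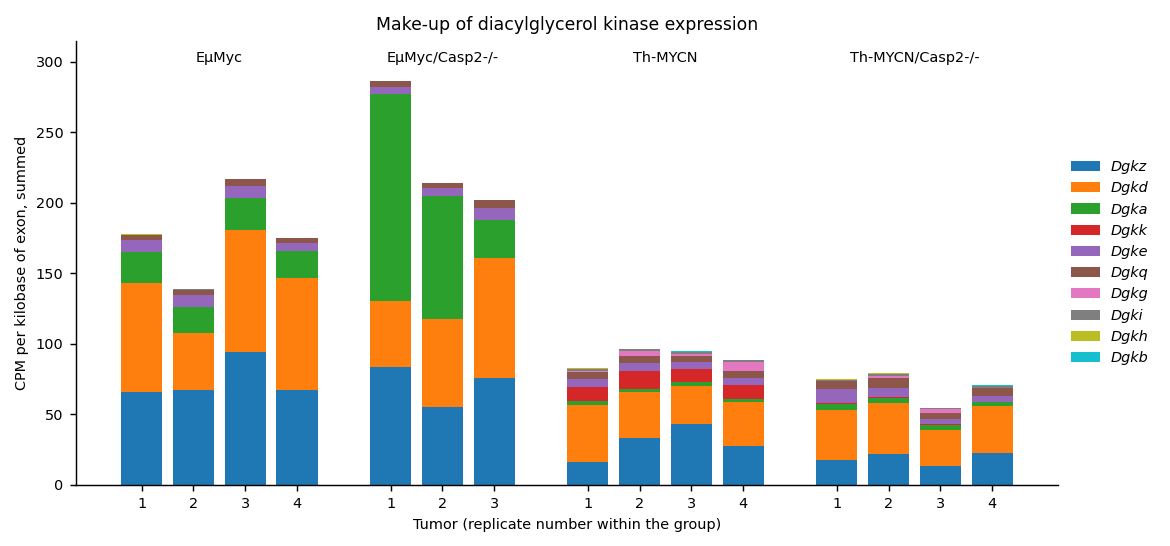
Stacked bars show CPM per kilobase of exon for the 10 genes in each of the 15 tumors, numbered by replicate within the 4 groups. Dgka (green) makes up 51.3% and 40.7% of the bar in EμMyc/Casp2-/- replicates 1 and 2, and Dgkk (red) is visible in the 4 Th-MYCN tumors.

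Of the type I isoforms, which bind calcium through EF hands, Dgka (ENSMUSG00000025357.8, chr10:128720134-128744855, minus strand) encodes the α isoform of lymphocytes. Its level in the 4 EμMyc lymphomas was 103, 84.6, 105 and 91.5 CPM, from replicate 1 to 4. In the 3 EμMyc/Casp2-/- lymphomas it was 698, 415 and 128 CPM. Every tumor without Casp2 was above every tumor with it, but replicate 3 exceeded the highest EμMyc tumor only slightly, and the SD of 285 CPM over 3 tumors was large against a mean of 414 CPM. The fitted log2 fold change was 2.11 (SE 0.37), a 4.31-fold difference. It was 1.51 without EμMyc/Casp2-/- replicate 1 and 2.53 without replicate 3. Over all 14880 genes tested, 1.14% were called higher in EμMyc/Casp2-/- lymphomas by LRT and 1.75% had groups that did not overlap in that direction (a gene is called at an FDR below 0.05 and an absolute log2 fold change above 1). Nothing is read from these shares for Dgka, since it was selected on this comparison.

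The summed T cell markers were highest in the 2 lymphomas with the most Dgka. Their summed level was 108, 133, 130 and 228 CPM in EμMyc replicates 1 to 4. It was 1860, 349 and 216 CPM in EμMyc/Casp2-/- replicates 1 to 3, the order that Dgka followed in these 3 tumors. In replicate 3 the sum lay within the range of EμMyc tumors, while Dgka was above all of them. Among EμMyc tumors the order was not shared, since replicate 4 had the highest sum but only 91.5 CPM of Dgka. Cd2 alone made up 122 of the 228 CPM there. By LRT, 6 of the 12 markers were called higher and 0 by QLF, beside 1.14% of all genes called higher by LRT. These calls were not repeated without replicate 1, where Cd8a was at 362 CPM against 9.85 and 7.57 CPM in replicates 2 and 3. In replicate 2, which had 415 CPM of Dgka, every marker but Lck and Cd2 was above all EμMyc tumors. Cd3e (a chain of the T cell receptor complex) was at 4.42 CPM there, against 52.0 CPM in replicate 1 and 0 to 2.34 CPM in EμMyc tumors. Cd4 was at 83.0 CPM against at most 37.6 CPM in EμMyc tumors, and Tcf7 at 24.0 against at most 13.9 CPM. Lck, a kinase of that receptor, was at 28.9 CPM and Cd2, an adhesion molecule, at 104 CPM. Both lay within the range of EμMyc tumors (15.7 to 47.5 and 4.11 to 122 CPM). Zap70, another kinase of the receptor, was at 73.6, 74.4 and 66.4 CPM in EμMyc/Casp2-/- replicates 1 to 3 against 4.14 to 28.1 CPM in EμMyc tumors, so it was also high in replicate 3, where Dgka was at 128 CPM. Of all 12 markers, Cd3e was listed at 0 in EμMyc replicate 1, and no other marker was at 0 in a lymphoma. The B cell marker sum of 2880 to 3360 CPM in EμMyc/Casp2-/- lay within the range of EμMyc tumors. The part of T cells in the Dgka values was not tested.

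**Figure D2:**
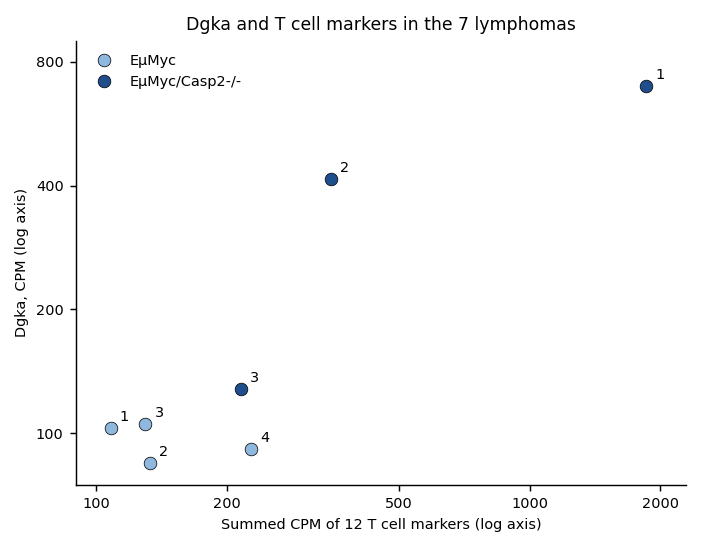
Each point is 1 lymphoma, with the summed CPM of 12 T cell markers on the x axis, Dgka CPM on the y axis (both log axes) and the replicate number beside it. EμMyc/Casp2-/- replicate 1 is highest on both axes (1860 and 698 CPM), and replicate 2 has 415 CPM of Dgka at a marker sum of 349 CPM.

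The genes around Dgka on chromosome 10 were examined for the same pattern. Cdk2, the cyclin-dependent kinase on its left, was at 157 to 192 CPM in EμMyc/Casp2-/- and 161 to 274 CPM in EμMyc lymphomas (log2 fold change −0.27, SE 0.25, LRT FDR 0.833). Mmp19, a matrix metalloproteinase on its right, was at 3.94 to 6.76 and 4.67 to 13.7 CPM (−0.63, SE 0.40, LRT FDR 0.684). Pmel, a melanosome gene, overlaps Dgka on the opposite strand, and the exons of the pair share 105 bases, 2.20% of the 4762 exon bases of Dgka. Pmel was at 2.89, 2.22, 3.39 and 1.17 CPM in EμMyc and at 29.1, 7.43 and 3.94 CPM in EμMyc/Casp2-/- lymphomas, which gives a log2 fold change of 2.46 (SE 0.70, LRT FDR 0.0408, QLF FDR 0.222). Between 12 and 322 reads per library that were assigned to Dgka in the 2 strand columns were absent from its count on either strand, and the number was the same for Pmel in 15 of 15 libraries. For Pmel these were most of the reads: its 2 strand columns summed to 375% of its count on either strand, against 104% for Dgka. Counted on either strand, Pmel had 37, 26, 41 and 22 reads in EμMyc and 116, 108 and 37 reads in EμMyc/Casp2-/- lymphomas. The library does not keep strand, since the strand column used held 48.8% to 49.3% of the reads of both, so reads in the shared bases cannot be given to 1 of the pair. Counted on either strand, where shared reads drop out, the log2 fold change of Dgka was 2.10.

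Over the 7 lymphomas the genes whose log2 CPM followed Dgka most closely were Mmp23 (Pearson r = 0.993), Lypd6 (0.988), 0610040J01Rik (0.987), 4930452B06Rik (0.981) and Six5 (0.981). All points come from the same libraries. Mmp23, a matrix metalloproteinase gene, was at 11.7 and 8.35 CPM in these 2 tumors and at 2.82 to 3.03 CPM in the other lymphomas. The transcription factor gene Six5 was at 8.01 and 6.43 CPM there and at 0.855 to 1.05 CPM elsewhere. Lypd6 and 4930452B06Rik had no more than 3 reads in any lymphoma.

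In neuroblastomas Dgka was low in both genotypes. It was at 16.3, 11.2, 14.0 and 11.6 CPM in Th-MYCN and at 18.7, 17.6, 18.6 and 14.1 CPM in Th-MYCN/Casp2-/- tumors. The groups overlapped, and the log2 fold change of 0.38 (SE 0.35, LRT FDR 0.988) was not called. The difference between its 2 genotype effects, 1.73 (SE 0.51) on the log2 scale, uses the comparison on which Dgka was selected and has no test here.

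The other type I genes, Dgkb and Dgkg, encode the β and γ isoforms of brain. Dgkb (ENSMUSG00000036095.11, chr12:37817726-38634239, plus strand) had 1 read in each of EμMyc replicates 1 and 2 and 0 reads in the other 5 lymphomas. It was at 1.16, 0.872, 1.15 and 1.17 CPM in Th-MYCN and 2.81, 1.48, 0.482 and 3.33 CPM in Th-MYCN/Casp2-/- tumors. Every neuroblastoma was above every lymphoma, at levels of only 5 to 41 reads. Dgkg (ENSMUSG00000022861.17, chr16:22468461-22657221, minus strand) was at 0, 1.37, 0.315 and 0.425 CPM in EμMyc and 1.56, 0.334 and 1.31 CPM in EμMyc/Casp2-/- lymphomas. It was at 7.82, 32.4, 13.9 and 59.9 CPM in Th-MYCN and 1.51, 10.7, 28.4 and 1.30 CPM in Th-MYCN/Casp2-/- tumors. Relative to its mean, Dgkg varied more within each neuroblastoma group than any other member with a mean above 10 CPM there, and the log2 fold change of −1.44 between the genotypes (SE 0.94, LRT FDR 0.877) was within that spread. Leaving out Th-MYCN/Casp2-/- replicate 3, the tumor with little Xist and the highest Dgkg of its group, moved it to −2.64, and leaving out Th-MYCN replicate 4 moved it to −0.78. Neither value was called.

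Of the type II isoforms, which carry a pleckstrin homology domain, Dgkk (ENSMUSG00000062393.13, chrX:6779306-6948363, plus strand) encodes the κ isoform and is the only X-linked gene of the 10. It was at 69.7, 90.9, 66.6 and 71.9 CPM in Th-MYCN replicates 1 to 4, with 1141 to 1252 reads in each. In Th-MYCN/Casp2-/- replicates 1 to 4 it was at 7.20, 1.80, 3.09 and 1.30 CPM, with 16 to 100 reads. The highest tumor without Casp2 lay far below the lowest tumor with it, and each of the 4 tumors without Casp2 was low. The fitted log2 fold change was −4.48 (SE 0.48), so that Th-MYCN/Casp2-/- tumors held 0.0449 of the Th-MYCN level. It was −5.18 without Th-MYCN/Casp2-/- replicate 1, −4.19 without replicate 4 and −4.42 without replicate 3. Over all genes tested, 0.625% were called lower in Th-MYCN/Casp2-/- neuroblastomas by LRT and 3.68% had groups that did not overlap in that direction, and nothing is read from these shares for a gene selected on the comparison.

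The Dgkk values of the sexes are given without a test, on too few tumors of each sex to read a difference. Th-MYCN replicates 1 and 3 were female (69.7 and 66.6 CPM) and replicates 2 and 4 male (90.9 and 71.9 CPM). In Th-MYCN/Casp2-/- tumors the 3 listed females had 7.20, 1.80 and 3.09 CPM (the last with little Xist) and the male had 1.30 CPM. With sex as a covariate the log2 fold change was −4.63. In the lymphomas Dgkk had 1 read in EμMyc replicate 4 and 1 read in EμMyc/Casp2-/- replicate 2, and 0 reads in the other 5. In neuroblastomas 2 marker lists also differed between genotypes without overlap. The endothelial sum (5 genes) was 46.3 to 72.3 CPM in Th-MYCN and 18.8 to 30.9 CPM in Th-MYCN/Casp2-/- tumors, and the sympathetic neuroblast sum (8 genes) was 4570 to 5650 and 3080 to 4270 CPM. By LRT 2 of the 5 endothelial and 0 of the 8 neuroblast markers were called, and by QLF 0 of either. Of all genes 0.625% were called lower by LRT and 0.0336% in either direction by QLF. Taken singly, 3.68% of all genes were lower without overlap. The part of these cells in the Dgkk values was not tested.

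Neither neighbor of Dgkk was expressed at a comparable level. Shroom4, an actin regulator gene on its left, was at 0.808 to 1.83 CPM in Th-MYCN and 0.0964 to 1.01 CPM in Th-MYCN/Casp2-/- tumors (log2 fold change −1.30, SE 0.70, LRT FDR 0.685). Ccnb3, a cyclin gene on its right, had no more than 1 read in any tumor and was not tested. The genes whose log2 CPM followed Dgkk most closely over the 8 neuroblastomas were Tert (r = 0.965), Grhl1 (0.960), Hspd1 (0.955), Golm1 (0.953) and Hspb8 (0.946), over points that share libraries and split by genotype. Because they were picked by their likeness to Dgkk, a gene selected on the genotypes, their differences between genotypes are descriptions with no test. Tert, the catalytic subunit of telomerase, was at 9.41 to 12.3 CPM in Th-MYCN and 3.53 to 5.59 CPM in Th-MYCN/Casp2-/- tumors (log2 fold change −1.26, SE 0.59). Golm1, a Golgi membrane protein gene, was at 70.8 to 141 and 19.8 to 46.2 CPM (log2 fold change −2.01, SE 0.47).

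The type II genes Dgkd and Dgkh encode the δ and η isoforms. Dgkd (ENSMUSG00000070738.10, chr1:87853287-87945180, plus strand) was high in every tumor. It was at 532, 281, 594 and 542 CPM in EμMyc and 322, 427 and 582 CPM in EμMyc/Casp2-/- lymphomas, and the genotypes overlapped. It was at 183 to 276 CPM in Th-MYCN and 173 to 249 CPM in Th-MYCN/Casp2-/- neuroblastomas. Of all members it was least different between the neuroblastoma genotypes (log2 fold change −0.01, SE 0.25, LRT FDR 1.00). Dgkh (ENSMUSG00000034731.11, chr14:78558750-78732776, minus strand) was scarce, at 2.89, 1.71, 0.866 and 2.34 CPM in EμMyc and 0, 1.50 and 2.12 CPM in EμMyc/Casp2-/- lymphomas. It was at 3.60, 2.83, 3.46 and 5.74 CPM in Th-MYCN and 6.99, 8.61, 6.27 and 3.09 CPM in Th-MYCN/Casp2-/- tumors, with overlap in each tumor type. The tumor at 0 was EμMyc/Casp2-/- replicate 1, where 3 reads are worth 0.607 CPM.

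Dgke (ENSMUSG00000000276.11, chr11:89035179-89066850, minus strand) encodes the type III ε isoform, which prefers diacylglycerol with an arachidonoyl chain. It was at 71.4, 74.4, 74.4 and 46.9 CPM in EμMyc and 43.0, 45.8 and 72.9 CPM in EμMyc/Casp2-/- lymphomas. It was at 41.1 to 46.3 CPM in Th-MYCN tumors, and spread from 30.9 to 81.4 CPM in Th-MYCN/Casp2-/- tumors. Groups of the same tumor type overlapped.

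The type IV genes, Dgkz and Dgki, encode the ζ and ι isoforms, which carry ankyrin repeats and a nuclear localization signal. Dgkz (ENSMUSG00000040479.11, chr2:91932824-91975864, minus strand), the other isoform known from lymphocytes, was at 413, 420, 591 and 422 CPM in EμMyc and 522, 346 and 476 CPM in EμMyc/Casp2-/- lymphomas. The log2 fold change of −0.04 (SE 0.29, LRT FDR 0.991) was far smaller than that of Dgka in the same tumors. In neuroblastomas it was at 99.8, 205, 268 and 170 CPM in Th-MYCN and 109, 135, 84.9 and 141 CPM in Th-MYCN/Casp2-/- tumors. The groups overlapped, and the difference was not called (log2 fold change −0.66, SE 0.27, LRT FDR 0.390, QLF FDR 0.605). Dgki (ENSMUSG00000038665.15, chr6:36846022-37300184, minus strand) lies 4.96 Mb from Casp2, on the chromosome that carries the targeted allele. It was at 0.437, 1.88, 0.157 and 0 CPM in EμMyc lymphomas and had 3 reads in 1 of the 3 EμMyc/Casp2-/- lymphomas and 0 in the others. It was at 10.1, 7.04, 8.14 and 6.11 CPM in Th-MYCN and 6.34, 8.22, 2.60 and 8.37 CPM in Th-MYCN/Casp2-/- tumors (log2 fold change −0.30, SE 0.71, LRT FDR 1.00).

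Dgkq (ENSMUSG00000004815.12, chr5:108646693-108669672, minus strand) encodes the type V θ isoform and varied least of the members (biological coefficient of variation 0.219). It was at 25.7 to 35.2 CPM in EμMyc, 27.7 to 40.6 in EμMyc/Casp2-/-, 33.1 to 38.9 in Th-MYCN and 29.0 to 52.2 CPM in Th-MYCN/Casp2-/- tumors, and every pair of groups overlapped. Its exons share 29.1% of their 7189 bases with those of Tmem175 and 1.72% with those of Idua, both on the opposite strand. Reads in the 2 strand columns summed to 134% of its count on either strand, so its level is uncertain by the reads of these neighbors.

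**Figure D3:**
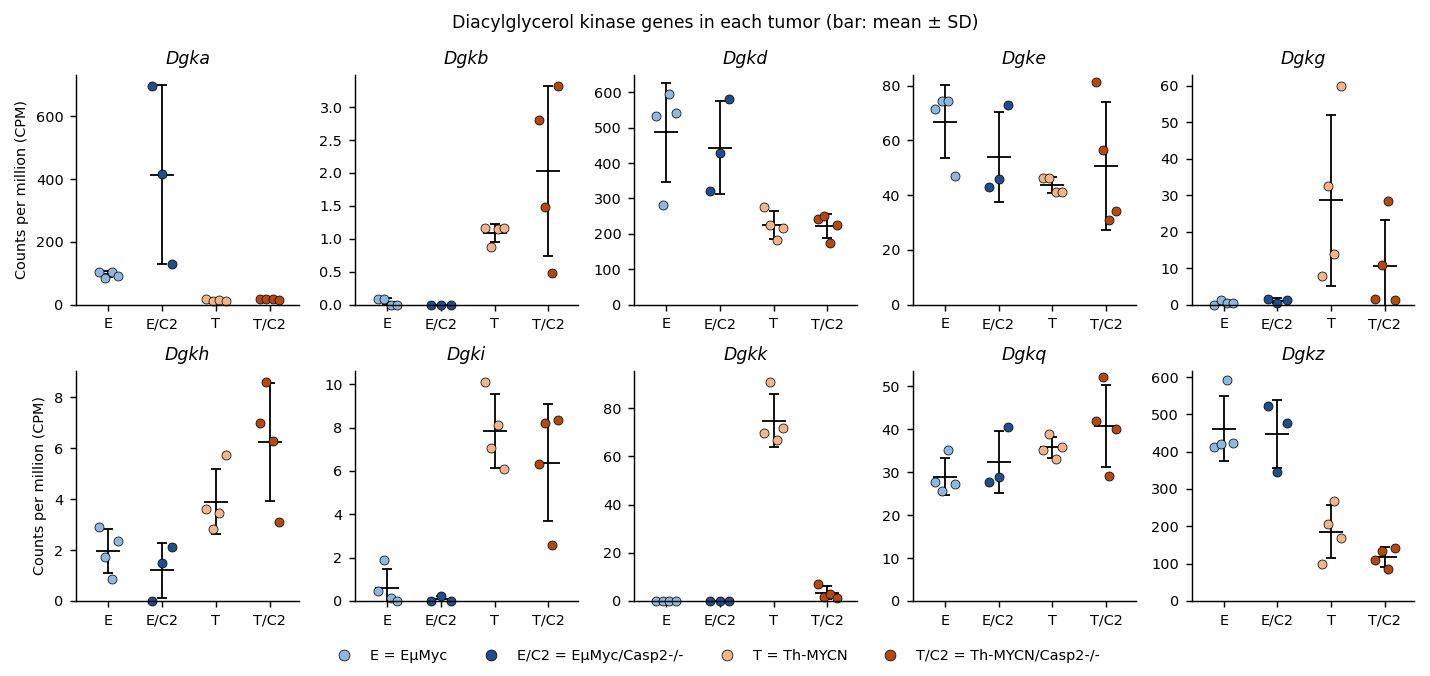
One panel per gene shows CPM in each of the 15 tumors (points), with the mean and SD of each group as bars, drawn down to 0 where they would pass below it. Dgka separates EμMyc/Casp2-/- replicates 1 and 2 (698 and 415 CPM) from all other tumors, and Dgkk is at 66.6 to 90.9 CPM in Th-MYCN tumors and at or below 7.20 CPM in all others.

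Besides the member selected on it, neither genotype comparison called a member. In EμMyc/Casp2-/- against EμMyc lymphomas 0 of the other 9 members were called by LRT, QLF or DESeq2, and 1, 0 and 1 of them had an unadjusted p below 0.05. The background there was 1.14% of genes called higher and 0.302% called lower by LRT, and 0.141% in either direction by QLF. In Th-MYCN/Casp2-/- against Th-MYCN neuroblastomas 0 of the other 9 were called by the same 3 tests, and 1 by each had an unadjusted p below 0.05. The background was 0.188% called higher and 0.625% called lower by LRT and 0.0336% in either direction by QLF. The difference between the 2 genotype effects was called for 0 of the 8 members apart from Dgka and Dgkk by the 3 tests, with 0 at an unadjusted p below 0.05, against 0.914% of all genes by LRT and 0.0538% by QLF. The median log2 fold change of the 10 members was −0.09 in lymphomas and 0.09 in neuroblastomas, beside −0.03 and 0.00 over all genes.

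The comparison of tumor types called members in both directions, as it did for many of all genes. It shares its tumors with the comparisons of the selection, so Dgka and Dgkk are given here without a test, and the calls are counted over the other 8 members. In EμMyc against Th-MYCN tumors 2 of these were called higher in lymphomas (Dgkd and Dgkz) and 3 higher in neuroblastomas (Dgkb, Dgkg and Dgki). Dgkb and Dgki passed the filter on low counts only through the neuroblastomas (0 and 1 of 7 lymphomas above 1 CPM), as did Dgkk, so a difference between tumor types was built into their passing and their calls are no support. Of all genes tested, 18.9% were called higher in the lymphomas and 28.5% in the neuroblastomas by LRT, and 46.1% in either direction by QLF, which also called 5 of the 8. The ranges of 3 of the 8 lay wholly higher in the lymphomas and those of 3 wholly higher in the neuroblastomas, against 26.4% and 32.9% of all genes.

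Toward lymphomas, Dgkz differed by 1.31 on the log2 scale (SE 0.27, LRT FDR 7.27e-06) and Dgkd by 1.11 (SE 0.25, LRT FDR 3.44e-05). Dgke was higher in every EμMyc than in every Th-MYCN tumor but was not called (0.61, SE 0.30, LRT FDR 0.0631). Dgka differed by 2.85 (SE 0.35), as a description. Toward neuroblastomas the low counts in lymphomas limit the size that can be given. The neuroblastoma to lymphoma ratio of Dgkg was 52.8, with a counting interval of 35.4 to 82.7 (LRT FDR 2.96e-06). Its fitted log2 fold change of −5.73 moved to −6.81 without EμMyc replicate 2 and to −5.07 without Th-MYCN replicate 4. The ratio was 24.9 for Dgkb (6.63 to 209, on 2 lymphoma reads), 12.3 for Dgki (8.48 to 18.6) and 3350 for Dgkk (601 to 132000, on 1 read in the 4 EμMyc tumors together). For Dgki the fitted log2 fold change of −3.63 moved to −5.19 without EμMyc replicate 2, which held the most Dgki of the lymphomas. These intervals are at 95% and cover counting error only. Dgkh (log2 fold change −1.01, SE 0.55, LRT FDR 0.101) and Dgkq (−0.30, SE 0.23, LRT FDR 0.245) were not called.

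Among tumors without Casp2, 1 of the 8 members was called higher in lymphomas (Dgkz) and 4 higher in neuroblastomas (Dgkb, Dgkg, Dgkh and Dgki), again with Dgkb and Dgki among those that passed only through the neuroblastomas. The background was 20.5% and 27.6% by LRT and 46.4% in either direction by QLF, which also called 5 of the 8. Ranges did not overlap for 2 members higher in lymphomas and 3 higher in neuroblastomas, against 23.6% and 31.2% of all genes. Dgkz was at 1.93 (SE 0.30, LRT FDR 4.89e-10) on the log2 scale. Dgkd, at 0.99 (SE 0.27, LRT FDR 0.000585), missed the fold threshold although its groups did not overlap, and it was called in 5 of the 7 fits that left out 1 of these tumors. Dgkh, not called in the wild-type comparison, was called here (−2.27, SE 0.62, LRT FDR 0.00101), without a call of the difference between the comparisons (LRT FDR 0.736). Without EμMyc/Casp2-/- replicate 1, which had 0 reads of Dgkh, its log2 fold change was −1.73 and stayed called. The neuroblastoma to lymphoma ratio of Dgkg was 10.3 (6.92 to 16.1, LRT FDR 0.00983). Its fitted log2 fold change of −3.31 lost its call without EμMyc/Casp2-/- replicate 2 (−2.82) or Th-MYCN/Casp2-/- replicate 3 (−2.11). The ratio of Dgki was 59.7 (20.3 to 291, on 3 reads, all in EμMyc/Casp2-/- replicate 2), and its fitted log2 fold change moved from −5.83 to −9.31 without that tumor. Dgkb, with 0 reads in these lymphomas, was at least 18.6-fold higher in the neuroblastomas, taking 3 reads over the 3 lymphomas as the limit of detection. As descriptions, Dgka was higher in the lymphomas by 4.58 on the log2 scale (SE 0.38), and the neuroblastoma to lymphoma ratio of Dgkk was 91.2 (16.2 to 3620, on 1 lymphoma read).

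**Figure D4:**
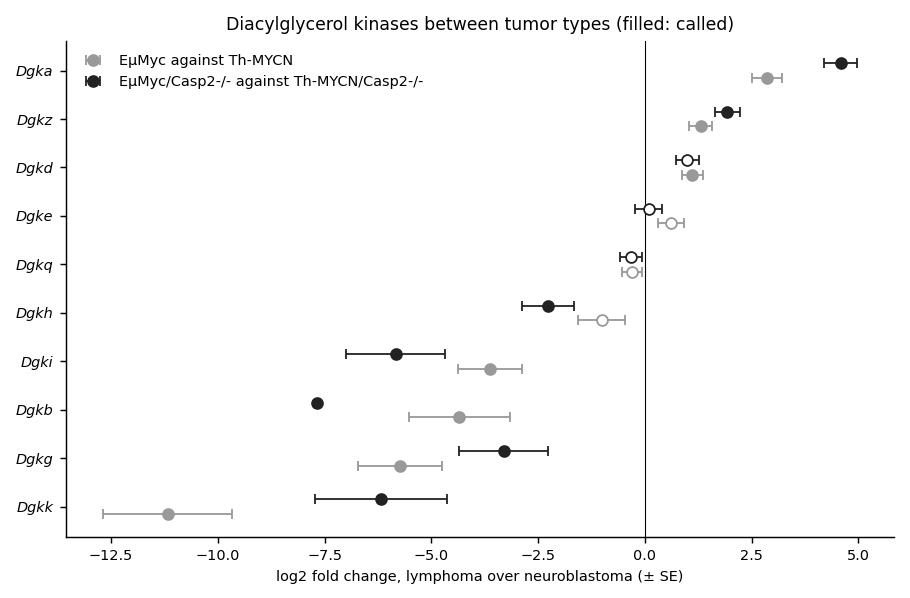
Points are log2 fold changes of lymphomas over neuroblastomas for the 10 genes, with wild-type tumors in gray, tumors without Casp2 in black, bars of ± 1 SE and filled symbols for genes past the thresholds (for Dgka and Dgkk as a description, not a test). Dgka is farthest to the right (2.85 and 4.58), and the fitted values of Dgkk, Dgkb and Dgki rest on few lymphoma reads, with no SE for Dgkb at 0 reads.

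Genes that supply or read diacylglycerol were examined beside the kinases in 4 lists with 61 genes, of which 59 were tested. In lymphomas 2 of the 59 were called by LRT, 1 in each direction, beside 1.14% of all genes called higher and 0.302% called lower. An unadjusted p below 0.05 was reached by 6 of the 59 by LRT, 6 by QLF and 7 by DESeq2. Pitpnm2, which encodes a phosphatidylinositol transfer protein, was at 70.5, 115, 116 and 162 CPM in EμMyc and at 6.25, 7.93 and 4.74 CPM in EμMyc/Casp2-/- tumors. The log2 fold change was −4.19 (SE 0.39, LRT FDR 8.53e-17, QLF FDR 0.000433). The study already names Pitpnm2 among its differentially regulated genes, and the lists were chosen with earlier results of these data known. Its tests here are therefore no independent support. All 3 tumors without Casp2 lay far below all 4 with it. Prkcq, the protein kinase C θ isoform of T cells, was at 0.875, 2.82, 0.866 and 3.08 CPM in EμMyc and 20.3, 3.76 and 4.54 CPM in EμMyc/Casp2-/- tumors, with the highest value in replicate 1, the library rich in T cell markers. Its log2 fold change of 2.30 (SE 0.67, LRT FDR 0.0482) was not called by QLF (FDR 0.237). The call was also lost without that replicate and without EμMyc replicate 1, 2 or 3. It was lost as well with no filter, in the first strand column, with only the groups compared and with sex as a covariate. The median log2 fold change over the 59 genes was 0.07, beside −0.03 over all genes.

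In neuroblastomas 0 of the 59 genes were called by LRT, QLF or DESeq2, with 7 at an unadjusted p below 0.05 by each. Of all genes 0.188% were called higher and 0.625% lower by LRT, and 0.0336% in either direction by QLF. Nothing is read from a count of 0 beside such shares. Pitpnm2 was at 23.3 to 57.9 CPM in Th-MYCN and 28.4 to 65.3 CPM in Th-MYCN/Casp2-/- tumors (log2 fold change 0.39, SE 0.34, LRT FDR 0.977). It was the only one of the 59 whose genotype effect was called different between the tumor types (−4.58, SE 0.52, LRT FDR 4.00e-13, QLF FDR 0.00125). Of all genes 0.914% were called in that comparison by LRT and 0.0538% by QLF. The limit given above for the tests of Pitpnm2 holds here too. The median over the 59 was 0.06, beside 0.00 over all genes.

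**Figure D5:**
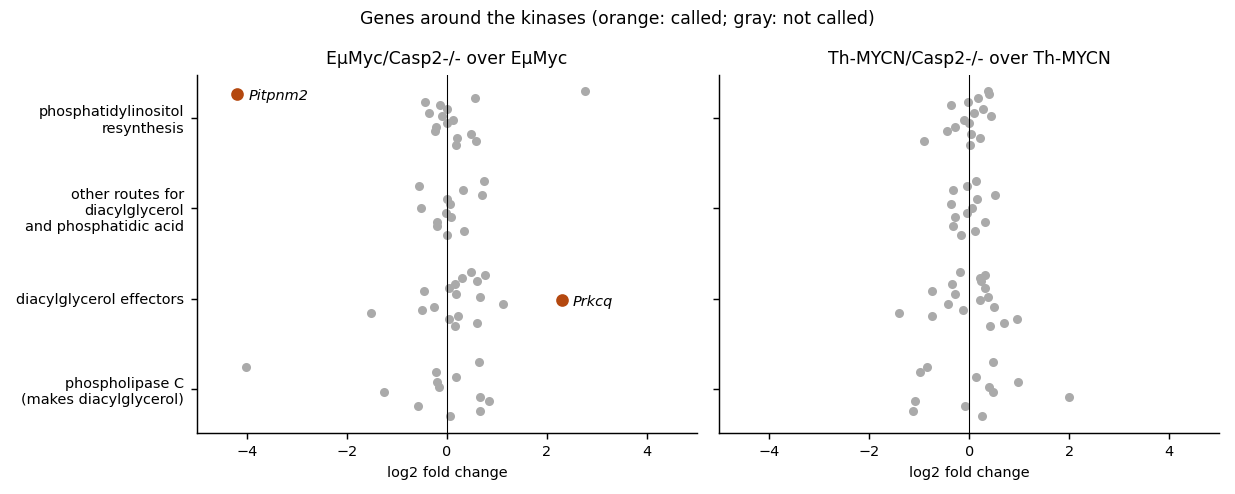
Each point is the log2 fold change of 1 of 59 genes, placed by list, for EμMyc/Casp2-/- over EμMyc (left) and Th-MYCN/Casp2-/- over Th-MYCN (right), with called genes in orange. Pitpnm2 (−4.19) and Prkcq (2.30) are called on the left, and no gene is called on the right.

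Between EμMyc and Th-MYCN tumors 12 of the 59 genes were called higher in lymphomas and 16 higher in neuroblastomas, beside the 18.9% and 28.5% of all genes. Of the 12 phospholipase C genes, which make diacylglycerol, 3 were called higher in lymphomas and 7 higher in neuroblastomas. Plcg2, the form below the B cell receptor, was at 290 against 8.63 CPM (log2 fold change 5.07, SE 0.30, LRT FDR 1.92e-46), and Plcb4 at 2.07 against 201 CPM (−6.59, SE 0.40, LRT FDR 2.70e-41). The list of diacylglycerol effectors held 18 tested genes, chosen by name, and whether each binds diacylglycerol was not examined. Of these, 8 were called higher in lymphomas and 4 higher in neuroblastomas. Rasgrp2, an exchange factor for Rap1, was at 295 against 2.55 CPM (6.84, SE 0.40, LRT FDR 1.29e-41). Chn1, a Rac GTPase activator, was at 1.17 against 109 CPM (−6.54, SE 0.32, LRT FDR 2.62e-79). Of 13 genes on other routes to and from diacylglycerol and phosphatidic acid, 0 were called higher in lymphomas and 5 higher in neuroblastomas, led by Dagla, a diacylglycerol lipase (−4.23, SE 0.52, LRT FDR 6.31e-13), and Dgat2, which makes triacylglycerol (−2.68, SE 0.53, LRT FDR 5.34e-06). Of 16 genes of phosphatidylinositol resynthesis 1 was called, Pitpnm2, higher in lymphomas (1.72, SE 0.34, LRT FDR 3.77e-06), while its relative Pitpnm3 was not (−2.19, SE 1.08, LRT FDR 0.0609).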

How the data were processed

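Poly(A) RNA of 15 tumors was sequenced as single-end reads. After FastQC, the authors ran STAR on the mm10 (GRCm38) genome and deposited its raw counts per gene for either strand, the first and the second. Like the study, the tests here took the second-strand column. The annotation release behind the counts is not given in the sources used here. A further EμMyc/Casp2-/- tumor of the study was not analysed here. The authors had left it out of their tests as a strong outlier that correlated poorly with its replicates. Sex came from the sample table of the study.

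Counts were scaled by TMM in R 4.3.3 with edgeR 4.0.16. Genes above 1 CPM in at least 3 tumors were kept (14880), and all tumors entered a single fit with 4 group means. The likelihood ratio test (LRT) was the main test because the study gives likelihood ratios. QLF and DESeq2 1.42.0 were alternatives, and the scripts were tested on simulated data. Replicates are tumors of separate mice, numbered in the order of the deposited list. Depth was 4940464 to 17638029 reads, and intervals and limits cover counting error only. Gene positions and exon lengths came from a GRCm38 annotation, matched by symbol. Like genes were ranked by Pearson correlation of log2 CPM with a prior count of 2.

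The named genes are the 10 members, the 5 most correlated genes and the neighbors of Dgka and Dgkk, pathway genes called between genotypes, and the 2 of each list with the largest difference between EμMyc and Th-MYCN tumors. Pmel, Casp2, Xist and single markers were added after their values were seen. Members and lists were chosen with earlier results of these data known.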

Additional observations from a re-analysis of the deposited data

Results flagged for a closer look

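The highest and lowest tumor was compared with the rest in 30 groups of 4, of which chance alone would single out about 1 in 20. In EμMyc lymphomas Dgke was lowest in replicate 4, at 46.9 CPM, and Dgkz was highest in replicate 3, at 591 CPM, each far from the other 3 tumors. Dgkk was highest in EμMyc replicate 4, at 0.106 CPM, which is 1 read against 0. In Th-MYCN neuroblastomas Dgkb was lowest in replicate 2, at 0.872 CPM or 12 reads. The genotype effect on Pitpnm2, a gene the study already names, differed between lymphomas and neuroblastomas by −4.58 on the log2 scale (SE 0.52, edgeR LRT FDR 4.00e-13).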

How the results depend on the processing

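The 2 fold changes of Dgka and Dgkk and both numbers of members called between tumor types kept their direction and stayed within their margins under every alternative run (other tests, size factors, filters, strand columns, sex, only the groups compared, and each tumor left out). For the fold changes the margin was the pooled SD of log2 CPM of the gene, 0.80 for Dgka and 0.74 for Dgkk. For the numbers of members it was a fixed ratio to the main number. A shift smaller than the spread of the gene thus counted as within the margin. Dgka ranged from 1.51 to 2.53 and Dgkk from −5.18 to −4.19 on the log2 scale with 1 tumor left out. Dgka was at 1.76 with sex as a covariate. Among tumors without Casp2, 6 to 8 members, Dgka and Dgkk included, passed the thresholds. Of the 2 pathway genes called in lymphomas, 1 was called by QLF, with no filter, with only the groups compared and with sex as a covariate, and 1 to 3 with 1 tumor left out; in each of these fits Pitpnm2 was called. In neuroblastomas 2 (Plcb4 and Plcd1) were called with only the groups compared and 0 to 1 with 1 tumor left out, the 1 being Plcg2 without Th-MYCN replicate 3. The interaction called 2 (Pitpnm2 and Pitpnm3) in the first strand column and 1 to 2 with 1 tumor left out. The cause was not tested. Groups of 3 or 4 tumors and levels near 3 reads limit what can be seen of Dgkb, Dgki and Dgkk in lymphomas. No paired analysis was made, because each tumor came from a separate mouse and the labels name no pairs.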
